A study of Mus musculus with 4 samples.

Results

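The transcripts described here encode 9 regulators of the early heart: the homeodomain factor Nkx2-5, the zinc finger factors Gata4, Gata5 and Gata6, the basic helix-loop-helix factors Hand1 and Hand2, serum response factor (Srf), its coactivator myocardin (Myocd) and the Gata cofactor Zfpm2, also called Fog2. All non-control probes that the array files name for one of these genes were taken, which gave 12 probes for these 9 of 30199 gene names, among 39429 probes on the array. The test covered 25506 probes whose signal was clearly over background on every array in at least 1 genotype, and 11 of the 12 were among them. The remaining probe is the second of Hand1. No probe of any of the 9 genes passed the test between mutant and control hearts, and neither did any other of the 25506 tested probes. Gata4, the Gata5 probe, Hand1 and the Srf probe A_55_P2149540 had log2 ratios above 0 in all 4 pairs of pools. The same held for 9.63% of all tested probes. The Zfpm2 probe A_55_P2031357 was below 0 in all 4 pairs, as were 10.2% of all tested probes. Read by the dye labels, the means of these named probes changed sign (-0.0185, -0.0745, -0.0035, -0.137 and 0.1005 in that order). Signs were mixed for Nkx2-5, Gata6, Hand2, Myocd and the other Srf and Zfpm2 probes.

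RNA came from mouse hearts microdissected at embryonic day 9.5, on a mixed CD1/B6/129 background. The mutant pools were Nkx2.5Cre; Hdac3f/f, in which a Cre recombinase under Nkx2-5 control acts on 2 floxed copies of the histone deacetylase gene Hdac3. The control pools were Hdac3f/f littermates, which carry the same floxed copies and no stated Cre. Each of the 4 two-colour Agilent arrays, all on 1 slide, held a pool of 3 mutant hearts against a pool of 3 control hearts. The comparison asks how deletion of Hdac3 in the Nkx2-5 lineage relates to transcript levels. Its p-values rest on the spread between these 4 pairs of pools, with the variance of each probe moderated over all tested probes (limma). That spread includes any dye effect. Cre is stated for the mutant pools only, so its effect and that of the loss of Hdac3 cannot be told apart, above all for Nkx2-5 itself. The labels do not say which Nkx2-5 Cre line was used. The Cre acts in cells that express Nkx2-5, and the dissected hearts also hold cells outside that lineage.

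These factors form a network that switches on contractile and signalling genes in the heart tube. Nkx2-5, Gata4, Hand factors and Srf bind each other or adjacent DNA sites, Myocd activates muscle genes by binding Srf, and Zfpm2 binds Gata4 and modulates its activity. In the heart, Gata4, Gata5 and Gata6 are also expressed outside the myocardium, among other places in endocardium or epicardium, while Hand1 and Hand2 mark partly different regions of the ventricles and the outflow tract. In pools of whole hearts, fewer cells of a type and less RNA per cell cannot be told apart.

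The direction of the ratios is not settled, because the labels and the deposited columns differ. The labels place mutant RNA in Cy5 on every array, but the authors' deposited columns, named as mutant against wild type, correlated positively with Cy5 over Cy3 on arrays 1 and 2 (0.93 and 0.94 across bright probes). On arrays 3 and 4 the correlation was negative (-0.99 and -0.95). The values below follow the deposited columns, as log2 ratios of mutant over control. Between arrays, these ratios correlated over 25489 probes at 0.54 for arrays 1 and 2 and at 0.42 for arrays 3 and 4, and between -0.30 and 0.09 for the 4 pairings of opposite orientation. Array 3 had the widest spread, with an SD over probes of 0.43 against 0.21 to 0.25 on the other arrays. The descriptions of replicates 2 to 4 mention embryonic stem cells, while titles, sources and genotypes name hearts. All 10 listed myocardial markers, cardiac actin and myosin genes among them, were measured. The pluripotency genes Pou5f1 and Sox2 were not kept by the background filter, although 6 of 8 pluripotency genes were. Hdac3 itself read below 0 in every pair (-0.22, -0.50, -0.52 and -1.15 as log2 ratios of mutant over control), a mean of -0.60 ± 0.39 (SD, n = 4), and did not pass the test over all probes (limma, adjusted p = 0.58). As a ratio the Hdac3 mean was 0.661, with a 95% confidence interval of 0.514 to 0.851. The size of this mean exceeded that of 99.2% of all tested probes, none of which passed. Read as labelled, the mean of Hdac3 was 0.24. The sources used here do not say whether its single probe lies in the deleted part.

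A 60-base oligonucleotide measured each transcript, and its sequence sets what the ratio can be assigned to. Stretches of 30 bases are shown for Gata5, whose probe shares sequence with many other loci, and for the 2 probes of Zfpm2, which overlap. The probe of the paralog Gata4 is shown at the same base positions. The Gata stretches were not aligned, so the Gata4 capitals mark position only. In the Gata lines capitals mark probe bases 30 to 44, and in the Zfpm2 lines they mark the 7 bases that both probes hold.
Gata5 probe A_55_P2046867, bases 23 to 52: tgtagctCTGGCTGTCCTGGAActcattat
Gata4 probe A_55_P2028894, bases 23 to 52: tgtaatcATTTTCGCTGTTTCTccctcaag
Zfpm2 probe A_55_P2031357, bases 31 to 60: ctcatcacatgcagcagaacatgTCAAATG
Zfpm2 probe A_51_P336509, bases 1 to 30: TCAAATGaactaactgagttactaaagaaa
The capitals of the Gata5 probe, searched on both strands as CTGGCTGTCCTGGAA, occurred in 39 of 32851 RefSeq promoter windows (GRCm38.p6), or 0.119% of them. Of the 46 words of 15 bases in that probe, 24 occurred in 2 or more promoters, and 13 probes of other genes held at least 1 of them on either strand. Each of the other 12 probes examined, that of Hdac3 included, had no word in more than 4 promoters and shared words with at most 2 probes of other genes. The stretch has the sequence type of the mouse B1 interspersed repeat, which occurs in very many transcripts. The value of this probe is therefore given below as that of the Gata5 probe, and its assignment to the Gata5 transcript was not tested.

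Nkx2-5, which drives the core myocardial programme and for which the Cre is named, differed in opposite directions between the pairs. The file headers name the mouse build mm9, in which its probe covers chromosome 17 from 26975621 to 26975680. The log2 intensity after normalization was 14.38, 14.39, 14.67 and 14.18 in mutant pools 1 to 4, against 14.26, 14.17, 14.75 and 14.76 in control pools 1 to 4. The ranges of the 2 groups overlapped. The deposited log2 ratios were 0.12, 0.22, -0.064 and -0.59, above 0 in pairs 1 and 2 and below 0 in pairs 3 and 4. Their mean was -0.079 ± 0.36 (SD, n = 4; limma adjusted p = 0.87), a ratio of 0.947 with a 95% confidence interval of 0.747 to 1.20. Without replicate 4 the mean was 0.092, so the sign of the mean rests on that pair. The SD over arrays exceeded that of 85.4% of all tested probes.

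**Figure D1:**
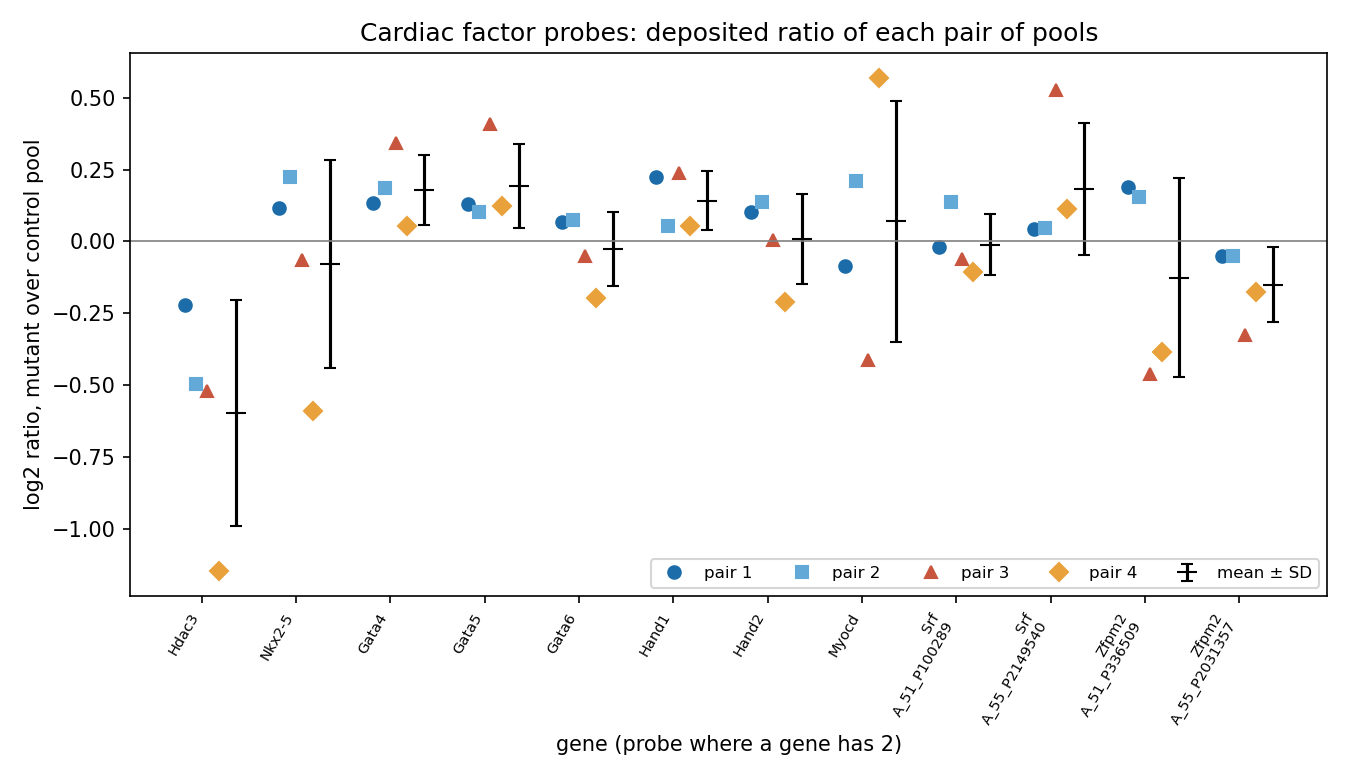
Deposited log2 ratio of mutant over control (vertical axis) for each probe (horizontal axis), with 1 point for each of the 4 pairs of pools and bars for the mean ± SD. The Gata4, Gata5 and Hand1 points all lie above 0, those of Nkx2-5 and Myocd lie on both sides of it, and Hdac3, shown for comparison, lies below 0 in every pair.

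Of the Gata factors, Gata4 and the Gata5 probe had slightly higher signal in every mutant pool and Gata6 did not. Gata4, a zinc finger activator required for heart tube formation, was measured on chromosome 14 from 63817858 to 63817917 (mm9). Its log2 intensity was 13.22, 13.22, 13.36 and 13.18 in the mutant pools, against 13.08, 13.03, 13.01 and 13.13 in the control pools. All 4 mutant values lay above all 4 control values, which held for 1 of the 11 tested probes of these factors, and in this direction for 1.29% of the 25489 tested probes with a ratio on every array. The log2 ratios were 0.14, 0.19, 0.34 and 0.052, with a mean of 0.18 ± 0.12 (SD, n = 4; limma adjusted p = 0.59). As a ratio this was 1.13, with a 95% confidence interval of 0.990 to 1.30. Leaving out each pair in turn gave means of 0.12 to 0.22, while reading every array by its label turned the mean to -0.019.

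The Gata5 probe, on chromosome 2 from 180059867 to 180059926 (mm9), had log2 intensities of 9.36, 9.31, 9.88 and 9.49 in mutant pools and 9.24, 9.23, 9.52 and 9.35 in control pools. Pair 3 was the brightest in both groups, and the groups overlapped. The log2 ratios were 0.13, 0.10, 0.41 and 0.12, with a mean of 0.19 ± 0.15 (SD, n = 4; limma adjusted p = 0.58). Without replicate 3 the mean was 0.12, lower by more than 1.5 times, and read as labelled it was -0.075. This probe holds the repeat-like stretch printed above.

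Gata6, which overlaps in function with Gata4 in the heart, had log2 intensities of 13.27, 13.32, 13.22 and 13.65 in mutant pools and 13.21, 13.24, 13.26 and 13.85 in control pools. Both pools of pair 4 stood above the other pools. The log2 ratios of 0.069, 0.073, -0.052 and -0.20 had a mean of -0.027 ± 0.13 (SD, n = 4; limma adjusted p = 0.93), a ratio of 0.982 with a 95% confidence interval of 0.857 to 1.12. Its probe lies on chromosome 18 from 11085039 to 11085097 (mm9).

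**Figure D2:**
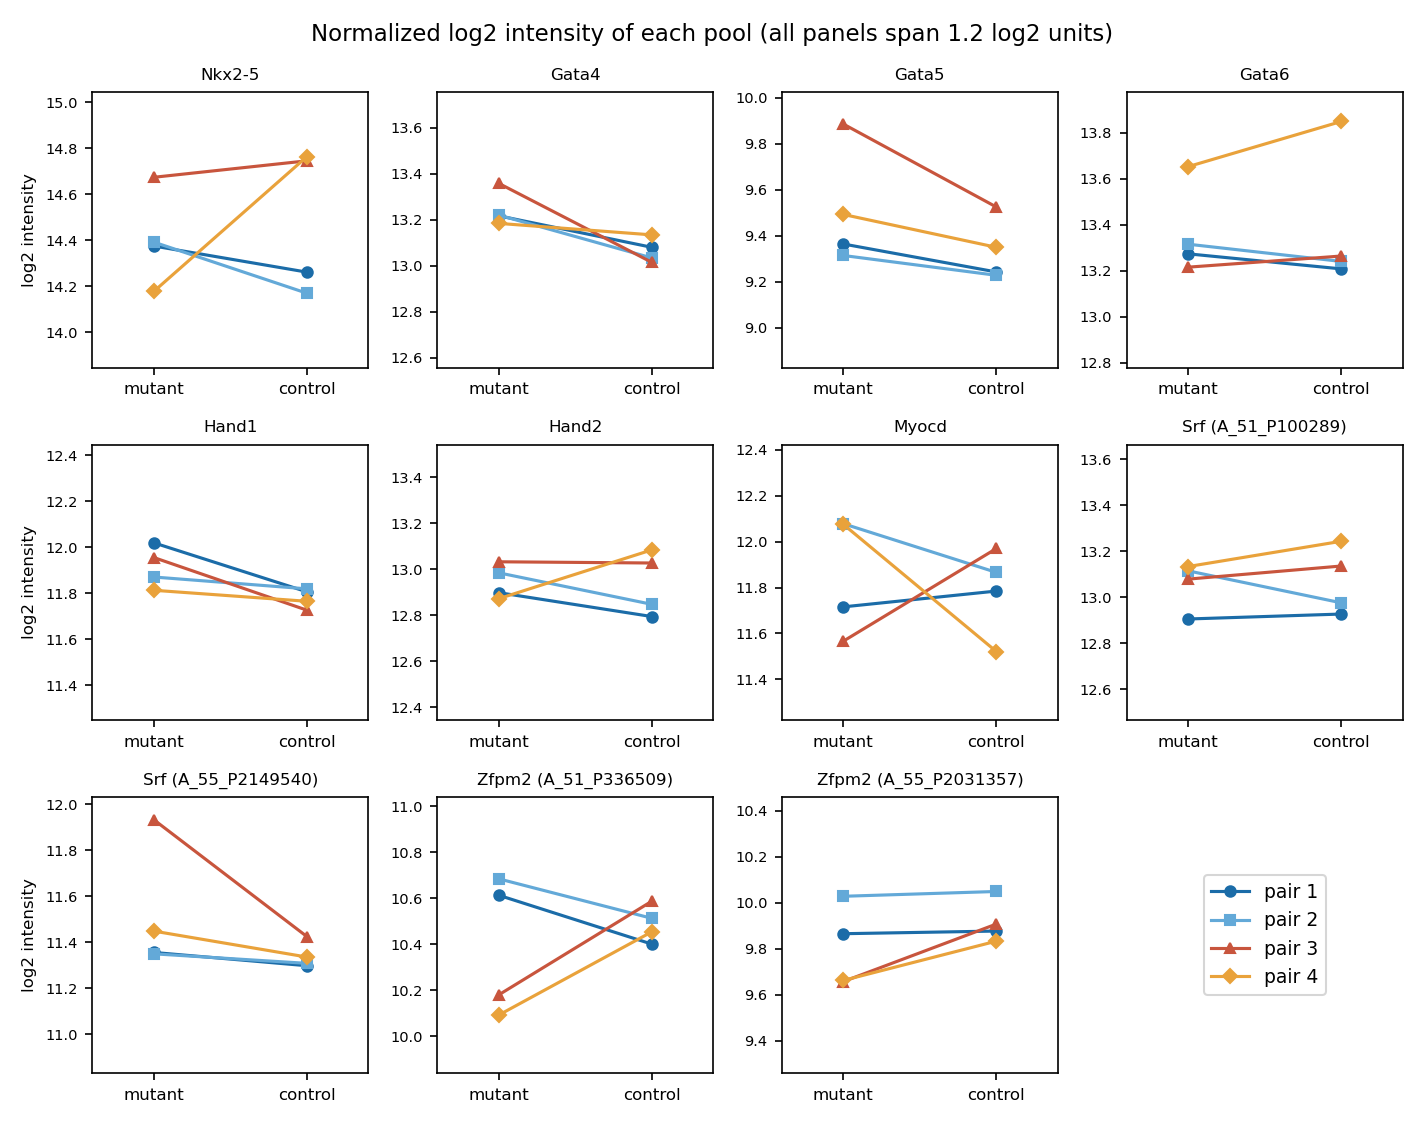
Normalized log2 intensity (vertical axis, 1.2 log2 units in every panel) of the mutant and the control pool of each pair, joined by a line, for the 11 tested probes. In the Gata4 panel every mutant point lies above every control point, while for Nkx2-5, Myocd and the Zfpm2 probe A_51_P336509 some lines run up and others down.

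Zfpm2, a multi-zinc-finger cofactor of Gata4 needed for heart morphogenesis, was read by 2 overlapping probes that gave different patterns. Both lie on chromosome 15 in mm9, from 40935062 to 40935121 and from 40935115 to 40935174, and share the 7 bases printed above. The first, A_55_P2031357, had log2 intensities of 9.86, 10.03, 9.66 and 9.66 in mutant pools and 9.88, 10.05, 9.91 and 9.83 in control pools, so the groups overlapped. Its log2 ratios were -0.051, -0.051, -0.33 and -0.18, below 0 in all 4 pairs, with a mean of -0.15 ± 0.13 (SD, n = 4; limma adjusted p = 0.61). Without replicate 3 this mean was -0.093, nearer to 0 by more than 1.5 times. The second, A_51_P336509, had log2 intensities of 10.61, 10.69, 10.18 and 10.09 in mutant pools and 10.40, 10.51, 10.59 and 10.45 in control pools. Its ratios of 0.19, 0.15, -0.46 and -0.38 were above 0 in pairs 1 and 2 and below 0 in pairs 3 and 4, with a mean of -0.13 ± 0.35 (SD, n = 4; limma adjusted p = 0.77) that came to -0.014 without replicate 3. Leaving out replicate 4 gave -0.040, and without replicate 1 or replicate 2 it came to -0.23 or -0.22. The second probe minus the first differed by 0.24, 0.20, -0.14 and -0.21 in log2 ratio on arrays 1 to 4, a mean of 0.026 ± 0.23 (SD, n = 4; two-sided exact sign-flip permutation p = 0.875, where 0.125 is the smallest that 4 pairs allow).

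The Hand factors, which act in ventricular growth and in the outflow tract, had small ratios. Hand1 was measured by the probe on chromosome 11 from 57642342 to 57642401 (mm9), with log2 intensities of 12.02, 11.87, 11.96 and 11.81 in mutant pools and 11.81, 11.82, 11.73 and 11.77 in control pools. Only mutant pool 4 fell within the control range. The log2 ratios of 0.22, 0.053, 0.24 and 0.054 had a mean of 0.14 ± 0.10 (SD, n = 4; limma adjusted p = 0.61), with a 95% confidence interval of -0.044 to 0.33 on the log2 scale. Its second probe, 4 bases from the start of its transcript model and on chromosome 11 from 57646257 to 57646316, was not well above background in any pool and gave no usable ratio. Hand2, on chromosome 8 from 59803220 to 59803279, had log2 intensities of 12.90, 12.99, 13.03 and 12.87 in mutant pools and 12.80, 12.85, 13.03 and 13.08 in control pools, which overlapped. Its log2 ratios of 0.10, 0.14, 0.004 and -0.21 gave a mean of 0.0073 ± 0.16 (SD, n = 4; limma adjusted p = 0.98), and the 95% confidence interval of the ratio was 0.869 to 1.16.

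Srf, a MADS-box factor that binds CArG boxes of muscle and growth response genes, was read by 2 probes on chromosome 17. A_51_P100289, placed in the files at 46683788 to 46683795 in mm9, had log2 intensities of 12.90, 13.11, 13.08 and 13.13 in mutant pools and 12.93, 12.98, 13.14 and 13.24 in control pools. Its log2 ratios of -0.020, 0.14, -0.060 and -0.11 had a mean of -0.012 ± 0.11 (SD, n = 4; limma adjusted p = 0.97). Those coordinates cover fewer bases than the probe, so the position of the rest is not given. A_55_P2149540, at 46685306 to 46685365, had log2 intensities of 11.36, 11.35, 11.93 and 11.45 in mutant pools and 11.30, 11.31, 11.42 and 11.34 in control pools. Mutant pool 3 was far above every other pool on this probe. The log2 ratios of 0.044, 0.047, 0.53 and 0.11 had a mean of 0.18 ± 0.23 (SD, n = 4; limma adjusted p = 0.62), and of 0.068 without replicate 3. The first Srf probe minus the second differed by -0.064, 0.091, -0.59 and -0.22 in log2 ratio (two-sided exact sign-flip permutation p = 0.375).

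Myocd, which confers cardiac and smooth muscle gene activation on Srf, had the most variable ratio of the factors. The probe lies on chromosome 11 from 64991930 to 64991989 (mm9). Log2 intensities were 11.72, 12.08, 11.57 and 12.07 in mutant pools and 11.78, 11.87, 11.97 and 11.52 in control pools, so the groups overlapped, with mutant pools 2 and 4 the highest and control pool 4 the lowest. The log2 ratios were -0.085, 0.21, -0.41 and 0.57, and pairs 3 and 4, of the same dye orientation, differed most. The mean of 0.070 ± 0.42 (SD, n = 4; limma adjusted p = 0.90) had a 95% confidence interval, as a ratio, of 0.804 to 1.37, and was -0.097 without replicate 4. Leaving out replicate 1, 2 or 3 gave means of 0.12, 0.024 and 0.23. Its SD exceeded that of 90.1% of tested probes.

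Across the set, 0 of 11 probes passed at an adjusted p below 0.05 (limma with Benjamini-Hochberg adjustment over 25506 probes), where 0% of all tested probes did. At an unadjusted p below 0.05, 0 of 11 did against 8.53% of all tested probes (2175 probes, with 3.65% higher and 4.88% lower). Ratios were above 0 on all 4 arrays for 4 of 11 probes, those of Gata4, Gata5 and Hand1 and the Srf probe A_55_P2149540, against 9.63% of all tested probes. They were below 0 on all 4 arrays for 1 of 11, the Zfpm2 probe A_55_P2031357, against 10.2%. Together 5 of 11 kept 1 sign on all 4 arrays, against 19.8%. With the brightest probe of each gene, 5 of 9 genes had a mean above 0 and 4 below. The median of the 9 means was 0.0073, beside 0.0063 over all tested probes. By pair the median of the 9 genes was 0.12, 0.14, -0.052 and -0.11, above 0 on arrays 1 and 2 and below 0 on arrays 3 and 4, while that of all tested probes stayed between -0.005 and 0.006.

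The deposited columns of arrays 1 and 2 and of arrays 3 and 4 differ in dye orientation. The mean of arrays 3 and 4 had the opposite sign to that of arrays 1 and 2 for 5 of 11 probes, those of Nkx2-5, Gata6, Hand2, Srf (A_51_P100289) and Zfpm2 (A_51_P336509), a share close to the 51.4% of all tested probes. Nkx2-5 averaged 0.17 on arrays 1 and 2 and -0.33 on arrays 3 and 4, Zfpm2 (A_51_P336509) 0.17 and -0.42, and Hand2 0.12 and -0.10. Gata4 averaged 0.16 on arrays 1 and 2 and 0.20 on arrays 3 and 4, and Hand1 0.14 and 0.15. The Gata5 probe averaged 0.12 on arrays 1 and 2 and 0.27 on arrays 3 and 4, and Srf (A_55_P2149540) 0.046 and 0.32, so both of these were larger on arrays 3 and 4. Read as labelled, with Cy5 over Cy3 on every array, Nkx2-5, Gata6 and Zfpm2 (A_51_P336509) were above 0 on all 4 arrays, 3 of 11 probes against 12.6% of all tested probes, with means of 0.25, 0.098 and 0.30. In a fit with a dye term, that term passed for 0 of 11 probes and for 0.051% of all tested probes (limma, adjusted p below 0.05). Its smallest adjusted p among the factors was 0.12, for Zfpm2 (A_51_P336509).

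**Figure D3:**
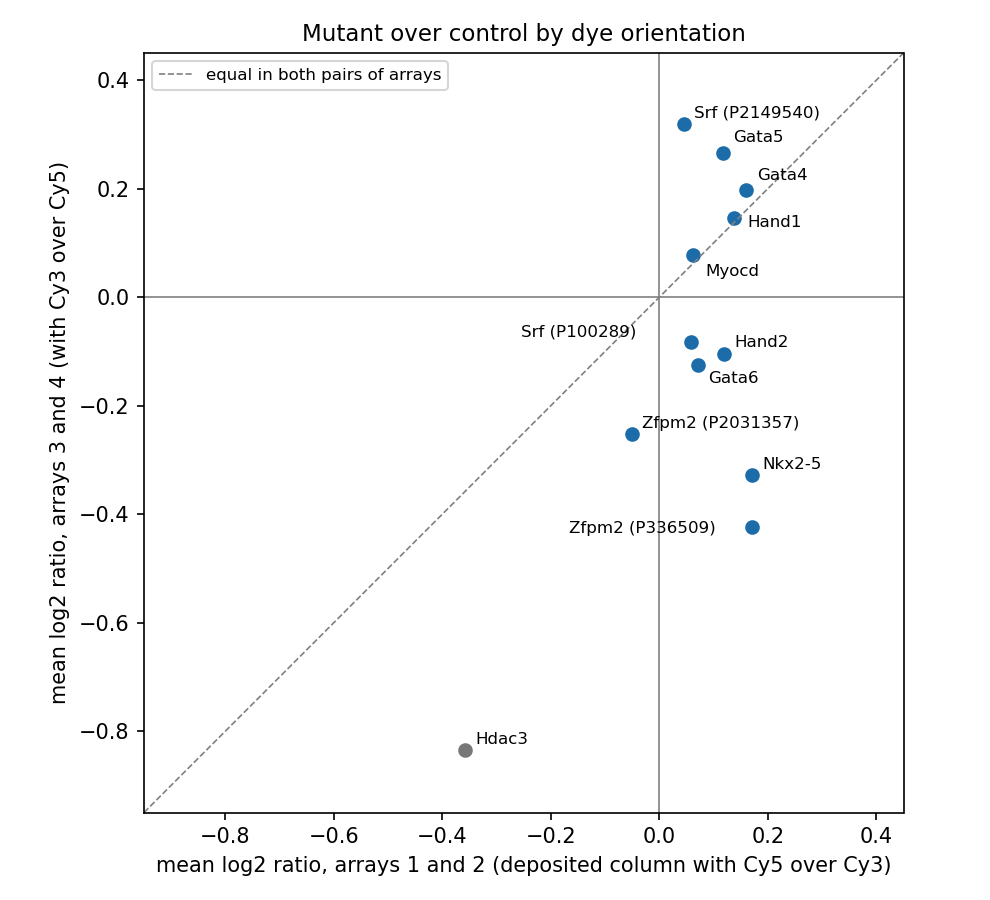
Mean log2 ratio of mutant over control on arrays 1 and 2 (horizontal axis) against that on arrays 3 and 4 (vertical axis) for each probe, with the line of equality dashed. Gata4, Hand1 and Myocd lie close to the line above 0, although the single arrays of Myocd do not share a sign, and Nkx2-5 and Zfpm2 (P336509) lie far below it.

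Genes that work with these factors were described by lists, for which no set test was run and whose members were chosen with results of these data known. Of 18 measured partner factors, 15 had a mean above 0, with a median log2 ratio of 0.14 (0.085 without replicate 3) and 0 passing the test in either direction. Over all tested probes 13225 means were above 0 and 12277 below. The list median was above 0 on every array (0.066, 0.15, 0.18 and 0.096), and read as labelled it was 0.0075. Cited2, a transcriptional coregulator needed for heart septation, had ratios of 0.25, 0.74, 0.83 and 0.23 and a mean of 0.51 ± 0.32 (SD, n = 4; limma adjusted p = 0.58). Mrtfa, a myocardin-related coactivator of Srf, averaged 0.25 ± 0.22, Tbx5, a T-box partner of Nkx2-5 and Gata4, 0.20 ± 0.15 (0.13 without replicate 2), and Smarcd3, a BAF remodelling subunit, 0.25 ± 0.28 (0.11 without replicate 3). All 4 of these were above 0 in each pair. None passed the test.

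Of 30 measured targets of Nkx2-5 and Gata4, 16 had a mean above 0 and 14 below, with a median log2 ratio of 0.019 (-0.040 without replicate 2) and 0 passing (limma). Cited2 is in this list as well and had its smallest p. Adora1, an adenosine receptor, averaged 0.30 ± 0.21 (0.20 without replicate 2). Chrm2, the muscarinic receptor of the heart, averaged -0.23 ± 0.13 and Irx4, a ventricular homeobox factor, -0.24 ± 0.16, both below 0 in every pair. In the 21 measured muscle targets of Srf and Myocd, 16 means were above 0 and 5 below, with a median of 0.056 (0.034 without replicate 3) and 0 passing. Actg2, smooth muscle gamma actin, averaged 0.49 ± 0.44, Sgcd, a sarcoglycan, -0.22 ± 0.22 (-0.13 without replicate 3), Vcl, vinculin, -0.31 ± 0.39 (-0.13 without replicate 3), and Cald1, caldesmon, 0.28 ± 0.38 (0.18 without replicate 3 and 0.46 without replicate 4).

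The growth response targets of Srf, 8 measured and Srf itself among them, had 5 means above 0 and 3 below, with a median of 0.12 (0.055 without replicate 4) and 0 passing. The immediate early factors Fosb and Fos averaged 0.11 ± 0.09 and 0.14 ± 0.26, Mcl1, a survival factor, 0.14 ± 0.20, and Cyr61, a matrix protein, 0.21 ± 0.38. Of these, only Fosb was above 0 in all 4 pairs. Without replicate 2 Fos averaged 0.055, without replicate 3 Mcl1 averaged 0.068, and without replicate 4 Cyr61 averaged 0.085. Of 12 measured partners and targets of the Hand factors, 7 means were above 0 and 5 below, with a median of 0.032 (0.0075 without replicate 3) and 0 passing. Twist2 and Twist1, which dimerize with Hand proteins, averaged 0.27 ± 0.13 and 0.28 ± 0.36 (0.11 without replicate 3 for Twist1). Dlx5, a homeobox factor of the arches, averaged 0.23 ± 0.29 (0.37 without replicate 4), and Nppa, the atrial natriuretic peptide gene, -0.31 ± 0.35, with ratios of 0.073, -0.15, -0.43 and -0.73.

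Markers of the cell types in and around the heart moved between pairs, and their part in the ratios of the factors was not tested. The 10 myocardial markers had a median log2 ratio of 0.079, 0.34, -0.20 and -0.32 on arrays 1 to 4. Nkx2-5, Gata6 and the Zfpm2 probe A_51_P336509 had the same signs in every pair, 3 of 11 probes against 12.6% of all tested probes. The other probes of the factors did not, and the median of the 9 genes did. These signs divide the arrays as their dye orientation does. Actc1, cardiac actin, chosen after its values were seen, read 0.20, 0.64, -0.15 and -0.53. Myh6, Myh7, Myl4 and Ttn had the same signs as Actc1 in every pair, while Nppa, Tnni1, Tnnt2, Myl7 and Tnnc1 did not. Nppa averaged -0.31 ± 0.35 (-0.17 without replicate 4), Tnni1 -0.14 ± 0.11, Tnnt2 0.15 ± 0.21 and Myl7 0.092 ± 0.31. Without replicate 2, Tnnt2 came to 0.065 and Myl7 to -0.032, and leaving out replicate 3 gave 0.22 for Myl7 and replicate 4 gave 0.23 for Tnnt2. The median of the 10 markers lay between -0.11 and 0.097 with 1 replicate left out. Over all arrays 5 of the 10 were above 0 and 5 below. The summed intensity of the 10 markers ranged over 1163030 to 1389770 in mutant pools and 1033540 to 1496490 in control pools. Sums here and below give the brightest probes the most weight, and their ranges leave out the pairing of pools. All 8 primitive erythroid markers had a mean below 0 (median -0.29, and -0.415 to -0.205 with 1 replicate left out). The array medians were 0.049, -0.56, -0.31 and -0.38, so pair 1 did not share the direction. Sums were 320600 to 591287 in mutant pools and 520208 to 666038 in control pools. Epb42 averaged -0.70 ± 0.35, Hbb-y -0.42 ± 0.42 and Hbb-bh1 -0.47 ± 0.51.

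All 8 proepicardial and epicardial markers, a tissue that also expresses Gata factors, had a mean below 0 (median -0.18, and -0.088 without replicate 2). Their sums were 5624 to 11567 in mutant pools and 6699 to 11514 in control pools, with Upk1b at -0.52 ± 0.35, Tcf21 at -0.42 ± 0.29, Upk3b at -0.34 ± 0.44 and Wt1 at -0.17 ± 0.24. Without replicate 2, Upk3b came to -0.14 and Wt1 to -0.083, and without replicate 1, Wt1 came to -0.26. Of 8 endocardial and endothelial markers, 5 means were above 0 and 3 below (median 0.17), with sums of 15779 to 18548 in mutant pools and 13868 to 17608 in control pools. Nfatc1 averaged 0.34 ± 0.13, Cldn5 0.22 ± 0.10, Cdh5 0.24 ± 0.21 (0.14 without replicate 3) and Emcn -0.24 ± 0.20 (-0.16 without replicate 3). None of these markers passed the test (limma, adjusted p of at least 0.58).

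Of the second heart field markers 6 of 8 were above 0 (median 0.17, and 0.10 without replicate 2), with sums of 16305 to 19876 in mutant pools and 12825 to 23682 in control pools, and Tbx1 averaged 0.83 ± 0.50, Six2 0.35 ± 0.33, Isl1 0.18 ± 0.17 (0.10 without replicate 2) and Tlx1 0.16 ± 0.16 (0.099 without replicate 2). Of 10 endoderm markers, 5 were measured and all had a mean above 0 (median 0.23), with sums of 2705 to 3138 in mutant pools and 2654 to 2756 in control pools. Alb, Apoa1, Cldn6, Foxa1 and Hnf4a were not kept by the filter. Among the 5 measured markers, Afp averaged 0.86 ± 0.89, with 2.11 in pair 1 and 0.45 without that pair. Ttr averaged 0.36 ± 0.33 (0.22 without replicate 1), Foxa2 0.23 ± 0.14 and Sox17 0.11 ± 0.20 (0.012 without replicate 2).

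Hand1 is also a factor of trophoblast giant cells, and 7 of 12 trophoblast markers were measured, all with a mean above 0 (median 0.27, and 0.13 without replicate 3). The array medians were -0.056, 0.27, 1.13 and 0.36, and the sums were 52801 to 118826 in mutant pools and 48964 to 74830 in control pools. Prl3d1, placental lactogen, read -0.86, 1.34, 1.30 and 1.29 on arrays 1 to 4, and Gzmg, a granzyme gene, averaged 0.86 with -0.79 in pair 1. Gzmf, of the same family, averaged 0.75 ± 1.07 and was below 0 in pair 1 as well. Hand1 read 0.22, 0.053, 0.24 and 0.054 on arrays 1 to 4, and its relation to these markers was not tested. Ascl2 averaged 0.15 ± 0.19 (0.085 without replicate 4). Without replicate 1, Prl3d1, Gzmg and Gzmf averaged 1.31, 1.41 and 1.28. Elf5, Gzmd, Prl2c2, Prl8a9 and Tpbpa were not on the array under that name or not kept. Neural crest and pharyngeal arch markers, in a tissue where Hand2 is active, had 3 means above 0 and 3 below of 6 measured (median 0.019, and -0.062 to 0.078 with 1 replicate left out), with sums of 16443 to 22003 in mutant pools and 15833 to 18428 in control pools and Dlx2 at -0.29 ± 0.18, Dlx5 at 0.23 ± 0.29, Prrx2 at 0.13 ± 0.27 and Prrx1 at -0.093 ± 0.36. With 1 replicate left out, Prrx2 lay between 0.040 and 0.23 and Prrx1 between -0.20 and 0.039, above 0 without replicate 1. Dlx1, Dlx6, Foxd3 and Tfap2b were not kept. Pluripotency markers had 4 of 6 above 0 (median 0.12), with sums of 4226 to 7167 in mutant pools and 3549 to 4365 in control pools, and Tdgf1 at 0.55 ± 0.56 (0.31 without replicate 3), Esrrb at -0.27 ± 0.23, Utf1 at 0.31 ± 0.30 (0.20 without replicate 3) and Zfp42 at -0.13 ± 0.06. Read as labelled, the list medians changed sign for the muscle targets of Srf and Myocd (-0.047), endocardium (-0.0079), primitive erythroid cells (0.056), trophoblast (-0.28) and pluripotent cells (-0.021).

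**Figure D4:**
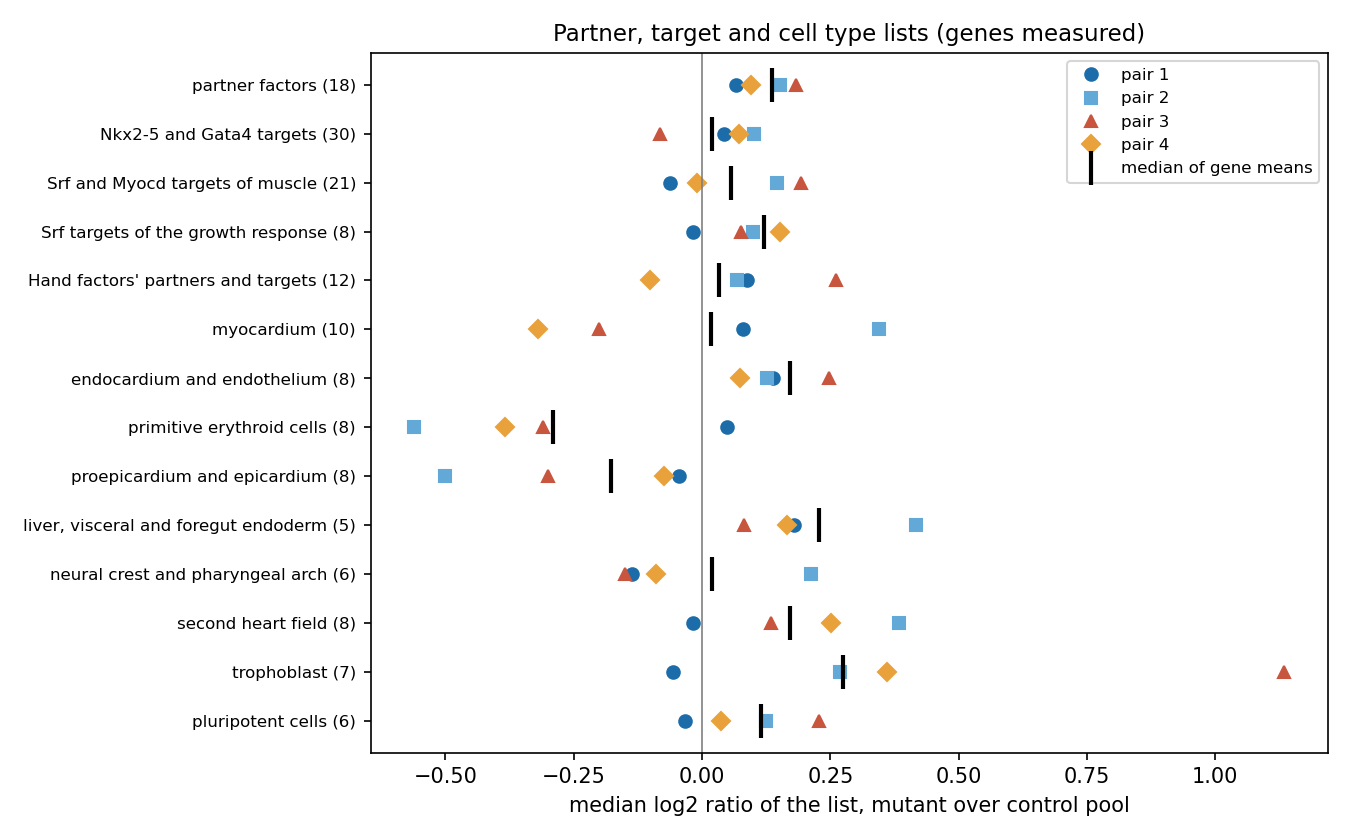
Median log2 ratio of mutant over control (horizontal axis) of each partner, target or cell type list on each of the 4 arrays, with the median of the gene means as a bar and the number of measured genes in brackets. The myocardial medians run from 0.34 in pair 2 to -0.32 in pair 4, the partner factors lie above 0 in every pair, and the trophoblast median reaches 1.13 in pair 3.

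For each factor, the genes whose 4 log2 ratios lay nearest to its own were found by Euclidean distance among 14460 named genes, as a description over 4 pairs only. Nearest to Nkx2-5 were Rpl13 (distance 0.11) and Cul3 (0.11), and to Myocd, Rpgrip1 (0.11) and Zbtb33 (0.16). Distances grow with the spread of a pattern and are not comparable between factors. Gata4 had Syp (0.031) and Zfp553 (0.044), the Gata5 probe Map4k1 (0.053) and Paqr9 (0.055), and Gata6 Ppp1r7 (0.029) and Batf3 (0.033). Hand1 had Sgsm3 (0.045) and Clps (0.062), and Hand2 had Oxt (0.043) and Sit1 (0.051). Srf had Ifnlr1 (0.040) and Taf3 (0.053), and Zfpm2 had Smarcad1 (0.052) and Tmem131 (0.079).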

How the data were processed

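Gene expression was measured on 4 two-colour arrays, each with 1 mutant and 1 control pool of 3 hearts. The authors deposited scanner output with mean, background and processed intensity for both dyes (Feature Extraction 11.5.1.1 per the file headers, 8.5.1.1 per the submitters' processing notes) and a table of log2 ratios (43173 rows, 153 of them no gene probe). The sources used here do not give its normalization. The deposited log2 values lay nearest to loess-normalized scanner ratios without background correction, with a median absolute difference of 0.0017 to 0.0051 per array. Column medians were -0.029, -0.017, 0.017 and 0.023. Rows were matched by probe name and spots of a probe averaged.

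The deposited ratios were compared with 0 by lmFit and eBayes in limma 3.58.1 (R 4.3.3), with Benjamini-Hochberg adjustment over 25506 probes. Confidence intervals at 95% come from this fit. Levels are log2 intensities after normexp (offset 50), loess and Aquantile, so their differences are close but not equal to the deposited ratios. Signals of different probes are not comparable. In each channel 66.7% to 71.3% of probes exceeded background clearly. The number of arrays limits the precision. Probe names came from the files, updated through RefSeq accessions of GRCm38.p6 for 27508 probes. Every probe of the 9 genes, Hdac3, the 4 genes of smallest p in each list and the 2 nearest genes of each factor were named by rule, except 1 list gene that is not reported here. Actc1, shown beside the myocardial markers, was chosen after its values were seen, as was the search for shared words in probes. The members and lists were chosen with earlier results of these data known. The steps were tested on simulated data. Alternatives covered normalization, dye orientation, filters, weights, pairing and leaving out each replicate.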

Additional observations from a re-analysis of the deposited data

Results flagged for a closer look

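Dixon's test was applied to the 4 ratios, the 4 mutant and the 4 control log2 intensities of each of the 12 probes. Groups of the same probe are not independent. The test flags about 1 in 20 groups by chance, and 4 results had 1 value far from the others. The gap to the nearest value made up 0.912 of the range for the Gata5 probe ratio, where pair 3 (0.41) stood above the other pairs, and 0.857 for the ratio of the Srf probe A_55_P2149540, where pair 3 (0.53) did so as well. It made up 0.831 of the range for the mutant log2 intensity of that Srf probe (11.93 in mutant pool 3) and 0.913 for the control log2 intensity of Gata6 (13.85 in control pool 4).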

How the results depend on the processing

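No probe of the 9 genes had an adjusted p below 0.05 (limma) under any alternative. Read as labelled, mean log2 ratios changed sign for Nkx2-5 (0.25), Gata4 (-0.019), Gata5 (-0.075), Gata6 (0.098), Hand1 (-0.0035), Myocd (-0.008), Srf (A_51_P100289 0.071, A_55_P2149540 -0.14) and Zfpm2 (A_51_P336509 0.30, A_55_P2031357 0.10). The 2 arrays that run with Cy5 over Cy3 gave Nkx2-5 0.17, Gata6 0.071, Srf A_51_P100289 0.059 and Zfpm2 A_51_P336509 0.17, and array weights gave 0.091, 0.045, 0.025 and 0.10 for the same probes. Median centring in place of loess gave Nkx2-5 0.044, Gata6 0.078 and Srf A_51_P100289 0.094, while it moved the median of all probes to 0.057. Hand2 was at -0.012 with processed signals and at -0.10 on the arrays that run with Cy3 over Cy5 alone, a choice added after seeing the data. The cause was not tested.

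Leaving out 1 replicate gave -0.18 to 0.092 for Nkx2-5, -0.060 to 0.030 for Gata6, -0.036 to 0.080 for Hand2, -0.097 to 0.23 for Myocd and -0.062 to 0.019 for Srf A_51_P100289, and the other probes kept their sign. The median of the 9 genes lay between -0.036 and 0.080 with 1 replicate left out. Over all alternatives it ran from -0.084, on the arrays with Cy3 over Cy5 alone, to 0.12, on those with Cy5 over Cy3 alone. Of all probes, 0 passed as reported, 12 as labelled, 19 on the arrays with Cy5 over Cy3, 5 with array weights and 0 to 4 with 1 replicate left out (4 without replicate 1). Without the replicate block, with the channel values after normexp, loess and Aquantile taken as unpaired, 0 probes passed and 397 higher and 399 lower probes had an unadjusted p below 0.05. The paired ratios after normexp and loess gave 0, 940 and 1106, and the deposited ratios 0, 931 and 1244. The pairing comes from the shared array. Of the factors' probes, the second of Hand1 was limited by signal at background.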
